A study of Mus musculus with 15 samples.

Results

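Lipid droplets are the fat stores of a cell, a core of triglyceride and cholesterol ester under a phospholipid monolayer that carries its own proteins. They form at the endoplasmic reticulum, grow by fusion or by taking in fat from neighbours, and are emptied by lipases, chiefly the adipose triglyceride lipase (ATGL, gene Pnpla2). The CIDE proteins sit where droplets touch and let fat pass from the smaller to the larger, the perilipins coat the surface and govern access of lipases, Hilpda and G0s2 bind and inhibit ATGL, and Fitm2 lets new droplets bud from the endoplasmic reticulum. In liver, fat-laden hepatocytes are known for high levels of several of these proteins.

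The mRNA levels of 10 such genes, Cidea, Cideb, Cidec, Plin2, Plin3, Plin4, Plin5, Hilpda, G0s2 and Fitm2, were read from the 56980 gene rows deposited for the study, each found through its Ensembl ID. All 10 passed the filter on low counts and were tested among 14627 genes. The libraries came from livers of male C57BL/6J wild-type mice that went at 15 weeks of age onto 1 of 3 diets, with 10% fat (control), 60% fat (high-fat) or 89.9% fat (ketogenic), and ate it for 9 months. Every sample title, in all 3 diets, also carries the letters ALF, which the titles do not spell out. The control group had 4 libraries, since the submitters set aside replicate 1 as contaminated, and the high-fat and ketogenic groups had 5 each. The labels do not say whether each library came from its own mouse, and the spread that every p-value rests on is the spread between libraries, which may be technical.

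Total counts over the 14 libraries ran from 16329425 to 25349148. On the first 2 principal components, high-fat replicate 1 (-15.7 on the first) lay between the controls (-50.7 to -41.9) and the rest of its diet (17.6 to 34.6), and ketogenic replicate 5 (26.2 on the second) lay away from the other ketogenic libraries, which were at -51.9 to -23.3. Summed over 11 hepatocyte marker genes, the level was 140600 to 159300 CPM (counts of a gene per 1000000 counts of its library) in controls, 109800 to 136100 CPM in high-fat and 94400 to 133200 CPM in ketogenic libraries, so that all controls lay above all others. Alb made up most of this sum in every diet. Summed stellate cell and fibroblast markers were lowest in controls, with 335 to 392 CPM in control, 483 to 740 CPM in high-fat and 400 to 1097 CPM in ketogenic libraries. Of the adipocyte markers, Adipoq, Lep and Plin1 had at most 58, 32 and 64 counts in any library, while Fabp4 rose after the high-fat and Cfd after the ketogenic diet. Pancreatic acinar markers summed to 1790 CPM in control replicate 2 against 25.1 to 167.5 CPM in the other controls, and to 783 CPM in high-fat replicate 1 against 114 to 476 CPM in the rest of its diet. Summed over 19 macrophage markers, the level was 452 to 645 CPM in control, 597 to 1045 CPM in high-fat and 425 to 2099 CPM in ketogenic libraries, the highest in ketogenic replicate 5. The part of these shifts in the levels of the droplet genes was not tested. In whole liver, more cells of a kind and more RNA per cell cannot be told apart.

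Promoters of some of these genes are shown for context, since counts per gene do not tell which start was used. RefSeq promoter windows of build GRCm38.p6 ran from 250 bases before to 50 bases after a start. They were read for 9 of the 10 genes, with 2 starts each for Cidec, Hilpda and Plin5. Cidea was left out of this search, so nothing is said of its promoter. Both windows of Cidec, the droplet fusion gene that rose, are printed with that of Cideb, its relative that was not called, and with those of Plin2, the main hepatocyte coat gene, and Hilpda, a gene named for its induction by low oxygen. Capitals mark matches on either strand. They were sought to 2 copies of AGGTCA separated by 1 base with at most 2 mismatches in all (the direct repeat bound by PPAR and RXR receptors). The E-box CACGTG was also sought, as was ACGTG, 1 form of the hypoxia response core and here called the hypoxia core. The other form, GCGTG, was neither searched nor marked, and some of the windows hold it.
Cidec, first start (chr6:113435711-113436010, minus strand): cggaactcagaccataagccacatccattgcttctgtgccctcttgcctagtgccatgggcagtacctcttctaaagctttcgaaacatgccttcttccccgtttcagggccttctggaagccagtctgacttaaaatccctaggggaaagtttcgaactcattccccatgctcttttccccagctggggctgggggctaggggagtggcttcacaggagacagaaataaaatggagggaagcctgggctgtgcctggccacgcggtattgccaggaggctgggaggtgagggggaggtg
Cidec, second start (chr6:113434715-113435014, minus strand): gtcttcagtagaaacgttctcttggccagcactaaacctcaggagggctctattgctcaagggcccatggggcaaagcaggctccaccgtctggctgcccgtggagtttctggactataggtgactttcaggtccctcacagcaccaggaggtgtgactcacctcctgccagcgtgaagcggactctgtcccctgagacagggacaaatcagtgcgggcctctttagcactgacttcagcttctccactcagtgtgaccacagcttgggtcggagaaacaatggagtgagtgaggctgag
Cideb (chr14:55758375-55758674, minus strand): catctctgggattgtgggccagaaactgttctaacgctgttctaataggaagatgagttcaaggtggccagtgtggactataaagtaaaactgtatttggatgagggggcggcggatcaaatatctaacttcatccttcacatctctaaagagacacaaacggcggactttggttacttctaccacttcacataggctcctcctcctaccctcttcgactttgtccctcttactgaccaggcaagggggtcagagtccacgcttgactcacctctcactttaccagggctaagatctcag
Plin2 (chr4:86670010-86670309, minus strand): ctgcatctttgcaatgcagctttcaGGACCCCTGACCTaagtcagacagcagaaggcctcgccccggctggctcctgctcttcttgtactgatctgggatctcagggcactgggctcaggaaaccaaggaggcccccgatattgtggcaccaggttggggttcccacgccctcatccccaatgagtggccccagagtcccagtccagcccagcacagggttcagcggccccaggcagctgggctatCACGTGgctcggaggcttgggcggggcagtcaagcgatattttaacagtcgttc
Hilpda, second start (chr6:29272376-29272675, plus strand): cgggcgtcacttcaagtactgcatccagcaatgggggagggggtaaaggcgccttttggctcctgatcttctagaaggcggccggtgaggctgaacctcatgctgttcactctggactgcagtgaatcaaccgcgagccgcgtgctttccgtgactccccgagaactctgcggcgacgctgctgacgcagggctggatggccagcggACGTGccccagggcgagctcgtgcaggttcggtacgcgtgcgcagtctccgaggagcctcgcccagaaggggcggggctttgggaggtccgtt

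The Plin2 window held the direct repeat on its reverse strand at -225 to -213, counted from 0 at the start, with 2 mismatches, and an E-box at -4 to 1 that contains the hypoxia core on both strands. The second Hilpda window held the hypoxia core at -43 to -39. None of these letters stood in either Cidec window or in that of Cideb. The windows not printed, the first of Hilpda and those of Plin3, Plin4, Plin5, G0s2 and Fitm2, held none of them either. Among 32851 promoter windows of the same length, 3.86% held the direct repeat under the same rule, 7.15% the E-box and 19.6% the hypoxia core. These matches describe the letters of these windows and were not tested as sites.

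Both fat-rich diets were compared with the control diet to see how the droplet genes stood after long feeding. After the high-fat diet 8 of the 10 genes were higher and 0 lower (edgeR's quasi-likelihood test, Benjamini-Hochberg adjusted p under 0.05 over all genes), where 6.95% of all tested genes were called higher, 5.01% lower and 12.0% in either direction. After the ketogenic diet 7 were higher and 0 lower, against 7.47% higher, 4.60% lower and 12.1% in either direction among all genes. The median log2 fold change of the 10 genes was 1.45 after the high-fat diet and 1.37 after the ketogenic diet, beside 0.01 and 0.03 over all genes tested. Both comparisons use the same control libraries and are therefore not independent. The 10 genes were chosen with earlier results of these data known, so the shares over all genes are given as context only. The 2 that were not called after either diet were Cideb and Plin5, and Plin3 was called after the high-fat and not after the ketogenic diet, with an edgeR adjusted p of 0.522 between those diets. Without high-fat replicate 1 and ketogenic replicate 5, an alternative added after the data were seen, the counts were again 8 and 7. The library highest in acinar markers was also dropped from each diet in turn. The counts were 8 and 7 when this was replicate 2 of the controls, and 7 and 7 when it was replicate 1 of the high-fat group. Dropping replicate 2 of the ketogenic group gave counts of 7 and 6, with the G0s2 call lost on both diets (edgeR adjusted p = 0.0612 and 0.0575). With library totals in place of TMM scaling the counts were 10 and 8. That scaling moved the median gene to 0.13 after the high-fat and 0.21 after the ketogenic diet, and the split over all genes from 1016 higher and 733 lower to 1302 and 420, and from 1093 and 673 to 1826 and 368.

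**Figure D1:**
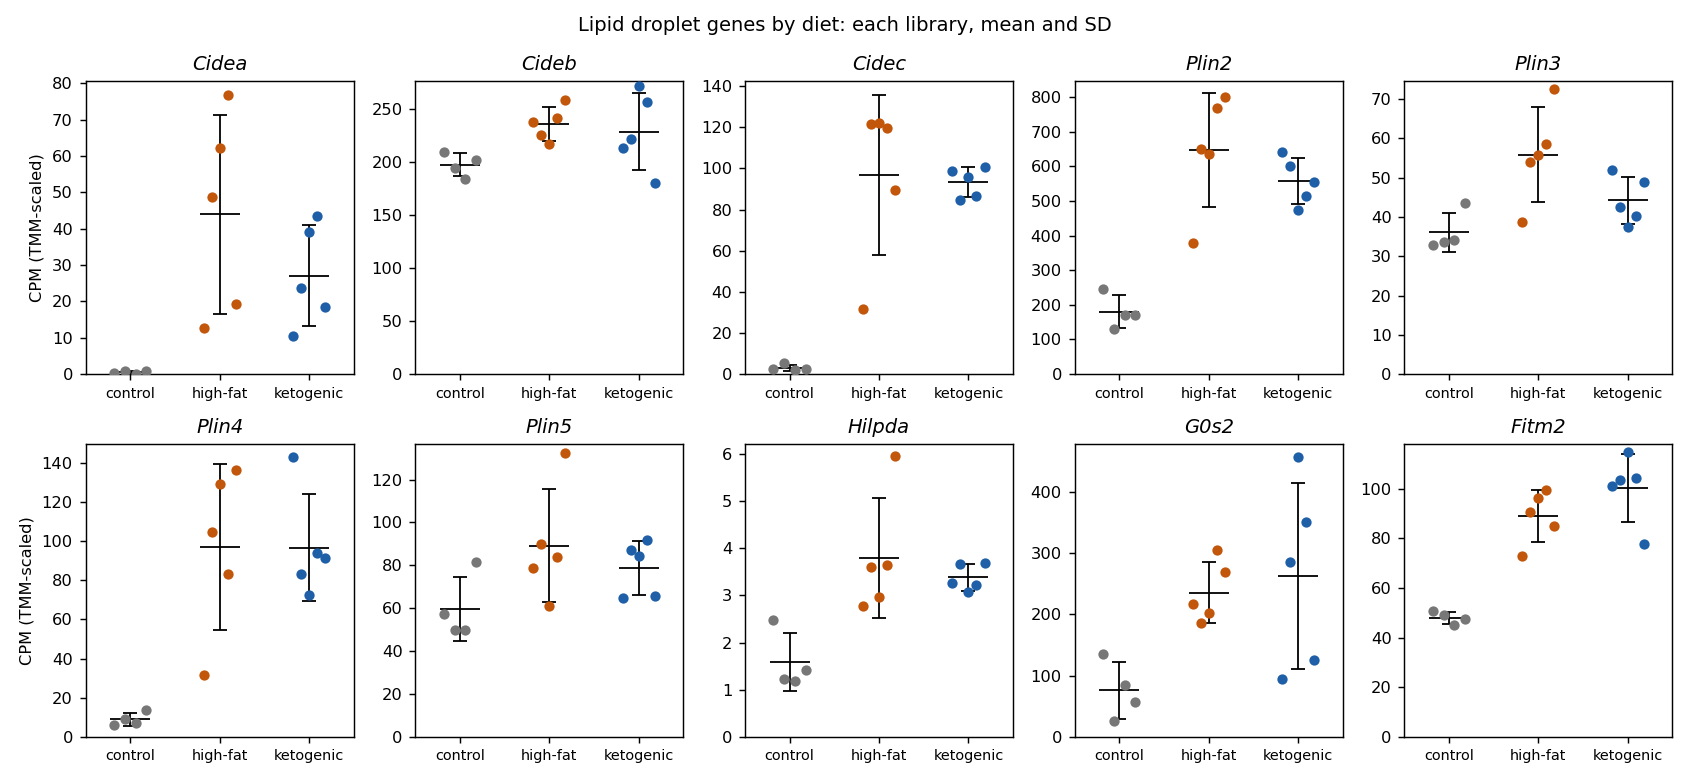
CPM (y axis, scaled by TMM, starting at 0) of each gene in each of the 4 control, 5 high-fat and 5 ketogenic libraries; points are libraries, the long bar is the mean and the whiskers are 1 SD. For Cidec, controls lie at 1.84 to 5.24 CPM and all libraries of both fat-rich diets at 31.6 CPM or above, while the Plin5 values of the 3 diets overlap.

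Of the CIDE genes, which drive droplet fusion, Cidea and Cidec rose from at most 0.967 and 5.24 CPM in controls to at least 10.4 and 31.6 CPM on the fat-rich diets. Cidea, best known from brown fat, stood in controls at 0.396, 0.967, 0.102 and 0.857 CPM in replicates 2 to 5, from 2 to 19 counts a library. High-fat replicates 1 to 5 had 12.7, 48.6, 62.3, 76.8 and 19.4 CPM. Ketogenic replicates 1 to 5 had 10.4, 23.7, 39.2, 43.5 and 18.6 CPM. Every library of the fat-rich diets lay above every control, and within each fat-rich diet the lowest and highest libraries were several-fold apart. Cidea was 75.3-fold higher after the high-fat diet (95% interval 23.1 to 245, log2 fold change 6.23 ± 0.79 (SE), edgeR adjusted p = 0.000457) and 46.2-fold higher after the ketogenic diet (14.4 to 148, log2 fold change 5.53 ± 0.78 (SE), edgeR adjusted p = 0.000578).

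Cidec, also called Fsp27, enlarges droplets in adipocytes and in fatty hepatocytes. Its control libraries had 2.26, 5.24, 1.84 and 2.63 CPM. High-fat replicates 1 to 5 had 31.6, 121, 122, 119.5 and 89.6 CPM, and ketogenic replicates 1 to 5 had 98.8, 84.9, 95.6, 86.8 and 101 CPM. The ketogenic libraries lay close together, with an SD of 7.70% of their mean, against 40.2% in the high-fat group, where replicate 1 was low. Cidec was 32.2-fold higher after the high-fat diet (95% interval 17.4 to 59.6, edgeR adjusted p = 1.46e-05) and 31.0-fold higher after the ketogenic diet (16.8 to 57.4, edgeR adjusted p = 1.15e-05). Control replicate 3, the highest control for Cidea and Cidec, was also the highest control for Plin1, the adipocyte perilipin, at 3.26 CPM. The part of adipocyte RNA in those control values was not tested, and Plin1 itself was at 1.05 ± 0.47 CPM after the high-fat and 0.566 ± 0.470 CPM after the ketogenic diet, against 1.32 ± 1.34 CPM in controls (SD, n = 5, 5 and 4). Other adipocyte markers went both ways. In control, high-fat and ketogenic libraries Adipoq summed to 116, 99 and 54 counts and Retn to 50, 15 and 21. Lep summed to 20, 86 and 29 counts (4, 5 and 5 libraries). Of 9 tested adipocyte markers 1 was called higher after the high-fat and 2 after the ketogenic diet, and 0 lower. Fabp4 was at 12.0 ± 5.99 CPM in controls and 27.9 ± 8.10 CPM after the high-fat diet (edgeR adjusted p = 0.0405), and Cfd at 4.83 ± 3.28 CPM in controls and 64.8 ± 62.1 CPM after the ketogenic diet (edgeR adjusted p = 0.0139; SD, n = 4 and 5 each).

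Cideb, the CIDE gene of normal hepatocytes, which also helps load fat onto very low density lipoprotein, was high in every group. It stood at 197.8 ± 10.8 CPM in controls (SD, n = 4), 236 ± 16.1 CPM after the high-fat diet and 229 ± 36.3 CPM after the ketogenic diet (SD, n = 5 each). All 5 high-fat libraries, at 217 to 259 CPM, lay above the controls, at 184 to 209.5 CPM, while ketogenic replicate 5, at 180.5 CPM, lay below them. The differences did not pass the test, at 1.19-fold (edgeR adjusted p = 0.174) and by 0.21 ± 0.12 (SE) on the log2 scale (edgeR adjusted p = 0.262). With library totals as the scaling both passed (edgeR adjusted p = 0.00981 and 0.0101). In a GENCODE annotation of build GRCm38, 76.3% of the exon length of Cideb lies opposite exons of Nop9, a nucleolar protein gene, and no source used here states the strand setting of the counting. The level of Cideb is therefore uncertain. Nop9 was at 22.8 ± 1.86 CPM in controls, 17.5 ± 2.99 CPM in high-fat and 19.6 ± 3.80 CPM in ketogenic libraries (SD, n = 4, 5 and 5) and was not called.

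The division of CIDE reads between the members was compared by library, with the limit that the Cideb part is uncertain. Cidea and Cidec together gave 1.25%, 3.09%, 1.05% and 1.69% of the CIDE counts in control replicates 2 to 5. In high-fat replicates 1 to 5 they gave 15.7%, 43.0%, 45.9%, 44.8% and 29.7%, and in ketogenic replicates 1 to 5 33.9%, 32.8%, 33.1%, 33.7% and 39.8%. The groups did not overlap with controls. In the exact two-sided permutation test over libraries each contrast with controls gave p = 0.0159, the smallest p this design allows, and 0.0714 after adjustment over 9 share tests, which misses the threshold. Within the pair, Cidea gave 29.6% ± 7.90 of the counts of Cidea plus Cidec after the high-fat diet, 21.9% ± 9.71 after the ketogenic diet (SD, n = 5 each) and 15.1% ± 7.90 in controls (SD, n = 4), with adjusted p = 0.0714, 0.388 and 0.298 for high-fat against control, ketogenic against control and ketogenic against high-fat (exact permutation test). Control shares of the pair rest on 38 to 122 counts a library.

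**Figure D2:**
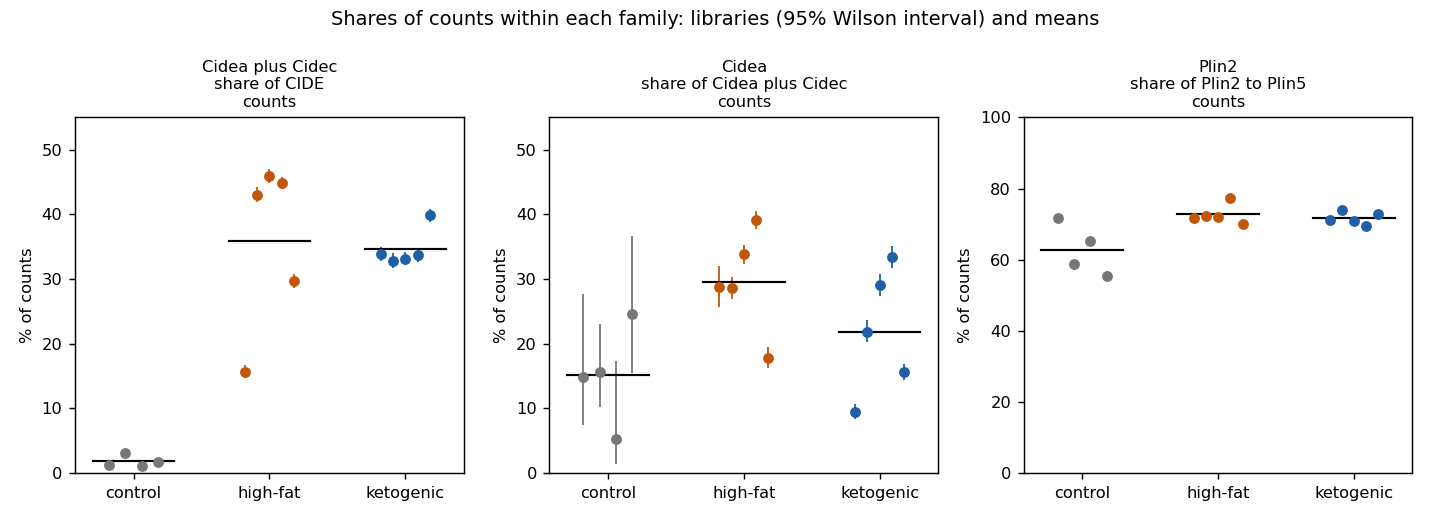
Percent of counts (y axis) given by the first-named genes among the family members named in each panel title, for each library by diet; vertical lines are 95% Wilson intervals, which cover counting error only, and horizontal lines are group means. Cidea plus Cidec give at most 3.09% of CIDE counts in controls and at least 15.7% in libraries of the fat-rich diets.

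Of the perilipins, Plin2 and Plin4 rose on both diets. Plin2, the usual coat protein of hepatocyte droplets, had 245, 132, 170 and 172 CPM in control replicates 2 to 5. High-fat replicates 1 to 5 had 380, 651, 636, 768 and 799.6 CPM, and ketogenic replicates 1 to 5 had 641.5, 602, 475, 513 and 556 CPM. No library of a fat-rich diet lay within the control range. Plin2 was 3.60-fold higher after the high-fat diet (95% interval 2.62 to 4.94, edgeR adjusted p = 0.000110) and 3.10-fold higher after the ketogenic diet (2.27 to 4.25, edgeR adjusted p = 0.000170).

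Plin4, a perilipin of adipocytes that binds small new droplets, was low in controls, at 6.11, 9.27, 7.17 and 13.5 CPM. High-fat replicates 1 to 5 had 31.4, 105, 129, 83.4 and 137 CPM, and ketogenic replicates 1 to 5 had 143, 83.2, 72.4, 93.9 and 91.5 CPM. The diets again did not overlap with controls, and high-fat replicate 1 was the lowest of the fat-rich libraries. The rise was 10.8-fold on the high-fat diet (95% interval 5.92 to 19.6, edgeR adjusted p = 0.000192) and 10.7-fold on the ketogenic diet (5.91 to 19.5, edgeR adjusted p = 0.000127).

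Plin3, a soluble perilipin that moves onto forming droplets in most cell types, changed less. Controls had 32.9 to 43.5 CPM, high-fat libraries 38.6, 53.9, 55.6, 58.6 and 72.5 CPM and ketogenic libraries 51.9, 42.4, 37.5, 40.3 and 48.9 CPM. High-fat replicate 1 lay within the control range, as did 3 ketogenic libraries. Plin3 was 1.55-fold higher after the high-fat diet (95% interval 1.23 to 1.95, edgeR adjusted p = 0.0170), a call lost without control replicate 3 or 4 (edgeR adjusted p = 0.0549 and 0.0596). It stood at 1.23-fold after the ketogenic diet (0.974 to 1.54, edgeR adjusted p = 0.235).

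Plin5, the perilipin of oxidative tissues that links droplets to mitochondria and restrains ATGL, had 57.5, 49.7, 49.6 and 81.6 CPM in control replicates 2 to 5. High-fat replicates 1 to 5 had 78.9, 89.9, 61.1, 83.8 and 132 CPM and ketogenic libraries 65.0 to 91.7 CPM. In each fat-rich group 3 of 5 libraries lay above all controls. The log2 fold change was 0.58 ± 0.21 (SE; fold interval 1.11 to 2.02, edgeR adjusted p = 0.0757) after the high-fat and 0.40 ± 0.20 (SE; fold interval 0.979 to 1.78, edgeR adjusted p = 0.210) after the ketogenic diet, neither past the threshold. The high-fat value passed with library totals (edgeR adjusted p = 0.0217) and without high-fat replicate 3 or control replicate 5 (edgeR adjusted p = 0.0424 and 0.0374).

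Among the counts of Plin2 to Plin5, Plin2 gave 62.7% ± 7.28 in controls (SD, n = 4), 72.7% ± 2.70 after the high-fat diet and 71.7% ± 1.75 after the ketogenic diet (SD, n = 5 each). Control replicate 2, at 71.8%, lay among the fat-rich libraries. The differences from controls had adjusted p = 0.0714 and 0.114 in the exact permutation test.

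**Figure D3:**
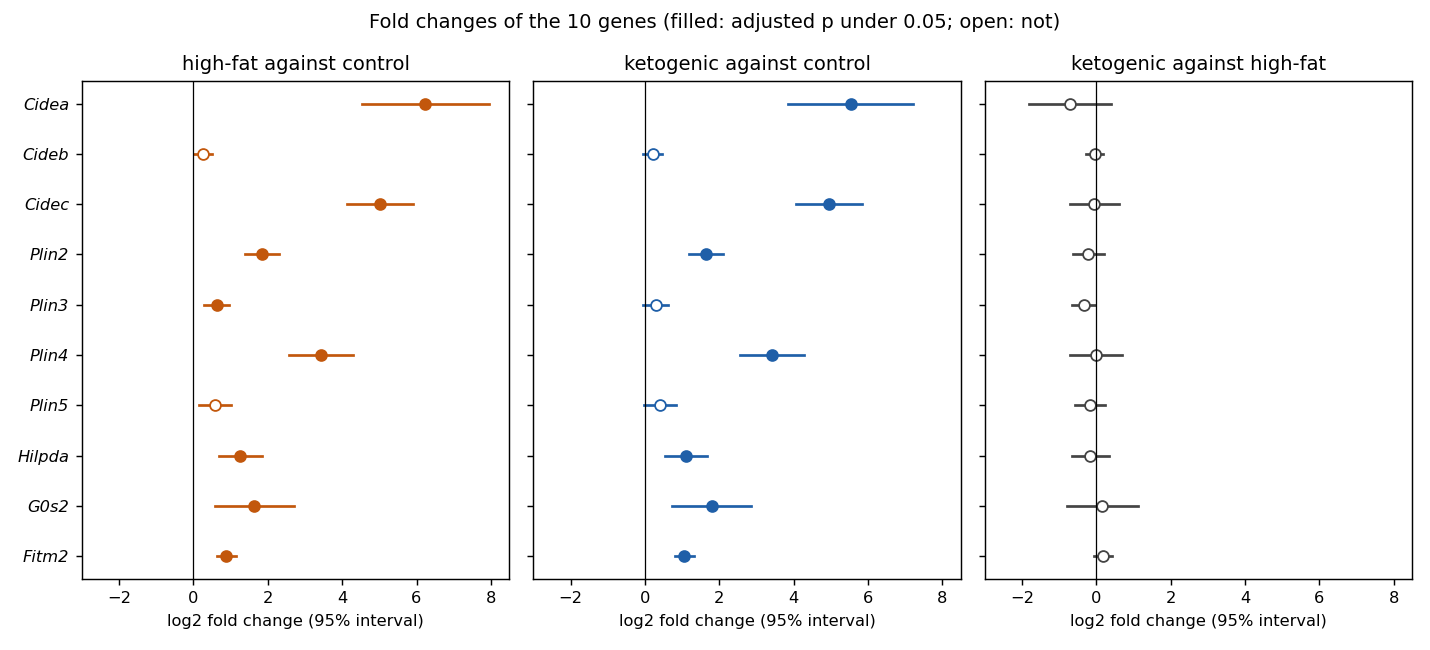
Log2 fold change (x axis) of each of the 10 genes (y axis) in the 3 comparisons, with 95% intervals from edgeR's quasi-likelihood fit; filled points passed an adjusted p of 0.05. Cidea, Cidec and Plin4 stand farthest from 0 in both comparisons with controls, and no gene passed between ketogenic and high-fat livers.

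Both inhibitors of ATGL were higher on the fat-rich diets. Hilpda, a small protein induced by hypoxia and by fatty acids, was scarce, with 23 to 120 counts a library. Controls had 2.49, 1.22, 1.18 and 1.43 CPM, high-fat replicates 1 to 5 had 2.77, 3.61, 2.96, 3.64 and 5.97 CPM, and ketogenic libraries ran from 3.06 to 3.70 CPM. The groups did not overlap with controls, though high-fat replicate 1 lay close to control replicate 2. Hilpda was 2.41-fold higher after the high-fat diet (95% interval 1.62 to 3.56, edgeR adjusted p = 0.00664) and 2.15-fold higher after the ketogenic diet (1.45 to 3.18, edgeR adjusted p = 0.0134). The second call was lost without control replicate 3 or 4 (edgeR adjusted p = 0.0533 and 0.0553). Macrophages also express Hilpda and Plin2. In ketogenic replicate 5, where macrophage markers were highest at 2099 CPM, Hilpda was at 3.70 CPM, the highest of its group. Plin2 was at 556 CPM there, the median of its group. Ketogenic replicate 2 had 3.67 CPM of Hilpda with macrophage markers at 584 CPM. The part of macrophage RNA in these levels was not tested.

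G0s2, the other ATGL inhibitor, varied widely within groups. Control replicates 2 to 5 had 135, 26.1, 84.4 and 57.6 CPM, high-fat replicates 1 to 5 had 216, 186, 201, 305 and 269 CPM, and ketogenic replicates 1 to 5 had 94.3, 284.5, 457, 350 and 126 CPM. All high-fat libraries lay above the controls, whereas ketogenic replicates 1 and 5 lay within the control range. G0s2 was 3.11-fold higher after the high-fat diet (95% interval 1.49 to 6.51, edgeR adjusted p = 0.0473) and 3.46-fold higher after the ketogenic diet (1.65 to 7.29, edgeR adjusted p = 0.0324). Both calls were marginal. The high-fat call was lost without any 1 of the high-fat libraries, control replicates 3, 4 or 5 or ketogenic replicates 2 or 4 (edgeR adjusted p from 0.0539 to 0.120), with DESeq2's size factors in edgeR (adjusted p = 0.0512), with the library number group as a term (adjusted p = 0.0606) and with no filter (adjusted p = 0.134). The ketogenic call was lost without ketogenic replicates 2, 3 or 4 or control replicates 3, 4 or 5 (edgeR adjusted p from 0.0575 to 0.0969), with only both diets compared in the fit (adjusted p = 0.0876) and with no filter (adjusted p = 0.1).

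Fitm2, the endoplasmic reticulum protein needed for droplet budding, rose on both diets and varied little among controls. Controls had 50.7, 49.0, 45.0 and 47.4 CPM, high-fat replicates 1 to 5 had 72.9, 90.4, 96.0, 99.6 and 85.0 CPM, and ketogenic replicates 1 to 5 had 101, 103, 115, 104 and 77.7 CPM. Controls differed among themselves by an SD of 5.05% of their mean, and no library of a fat-rich diet came near them. Fitm2 was 1.85-fold higher after the high-fat diet (95% interval 1.55 to 2.21, edgeR adjusted p = 0.000366) and 2.09-fold higher after the ketogenic diet (1.75 to 2.49, edgeR adjusted p = 6.09e-05). Over all genes tested, 16.2% had no overlap between high-fat and control libraries and 12.5% none between ketogenic and control libraries, against 8 and 6 of the 10 droplet genes.

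**Figure D4:**
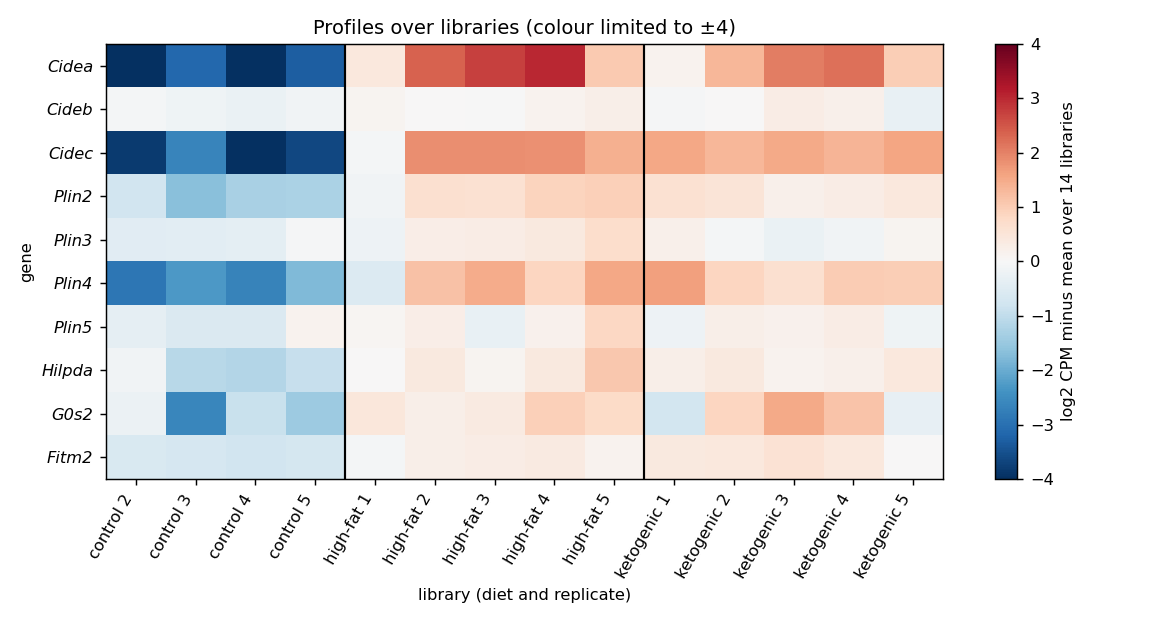
Log2 CPM of each gene (rows) in each library (columns, by diet and replicate) minus the gene's mean over the 14 libraries; red is above and blue below the mean, with colours limited to ±4. High-fat replicate 1 is lower than the other high-fat libraries for Cidea, Cidec, Plin2 and Plin4, and G0s2 is below its mean in ketogenic replicates 1 and 5.

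Ketogenic and high-fat livers were compared directly to see whether the very high share of fat in the ketogenic diet set these genes apart. Of the 10 genes, 0 passed edgeR's test in either direction, where 0.0615% of all genes were called, 0.00684% higher and 0.0547% lower. There were 0 of the 10 genes without overlap between these diets, against 1.76% of all genes. In edgeR 1 of the 10, Plin3, had an unadjusted p under 0.05, and DESeq2 called 0. The interval of the difference was narrow for Cideb, at 0.969-fold (95% interval 0.823 to 1.14), and Fitm2, at 1.13-fold (0.959 to 1.33). It was wide for Cidea, at 0.614-fold (0.285 to 1.32), and G0s2, at 1.11-fold (0.573 to 2.17), so that differences between these bounds were not excluded. Cidec stood at 0.964-fold (0.612 to 1.52), Plin4 at 0.998-fold (0.613 to 1.62), Plin2 at 0.862-fold (0.649 to 1.14), Plin5 at 0.883-fold (0.667 to 1.17) and Hilpda at 0.892-fold (0.630 to 1.26). Plin3 was 55.9 ± 12.1 CPM in high-fat and 44.2 ± 5.99 CPM in ketogenic livers (SD, n = 5 each), 0.792-fold (0.638 to 0.982, edgeR unadjusted p = 0.0352, adjusted p = 0.522). Over all genes the count called in this comparison was 9, and 315 without ketogenic replicate 5; none of the 10 genes passed there either.

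Levels of different genes were compared per kb of exon, with exon lengths from the GRCm38 annotation, in CPM per kb. In controls the order of mean levels ran from Cideb (133 ± 7.26) through G0s2 (86.9 ± 52.8), Plin2 (51.2 ± 13.6), Plin5 (28.6 ± 7.24), Fitm2 (12.1 ± 0.61) and Plin3 (9.53 ± 1.32) to Cidec (1.61 ± 0.83), Plin4 (1.56 ± 0.57), Hilpda (1.43 ± 0.56) and Cidea (0.521 ± 0.362; all SD, n = 4). The ranges of Cidec, Plin4 and Hilpda overlapped each other, as did those of Plin2 with Plin5, of Fitm2 with Plin3 and of G0s2 with both its neighbours. After the high-fat diet G0s2 (270 ± 57.2) and Plin2 (184 ± 47.1) stood with Cideb (159 ± 10.8) at the top, and Cidec (52.2 ± 21.0) and Cidea (39.4 ± 24.6) had moved beside Plin5 (42.8 ± 12.6; all SD, n = 5), with overlapping ranges. Plin4 (16.8 ± 7.32) and Plin3 (14.8 ± 3.20) also overlapped. Ketogenic livers had G0s2 at 301 ± 175, Plin2 at 159 ± 19 and Cideb at 154 ± 24.4 CPM per kb, then Cidec at 50.3 ± 3.88, whose libraries (45.7 to 54.4) lay above all those of Plin5 (31.1 to 43.9). Hilpda was lowest in both fat-rich groups, at 3.44 ± 1.16 and 3.07 ± 0.26 CPM per kb.

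**Figure D5:**
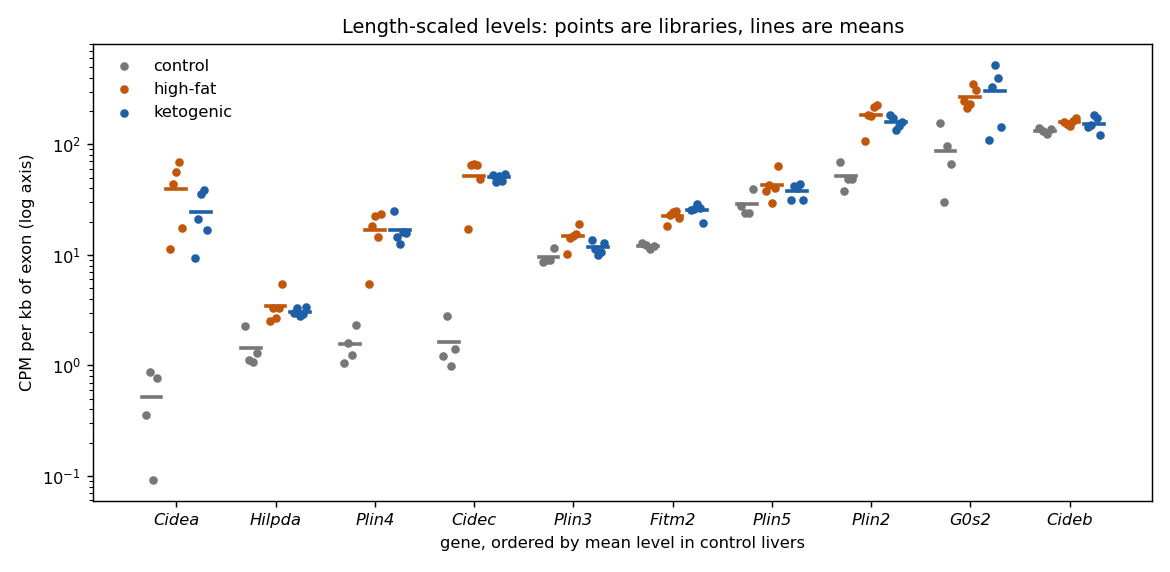
CPM per kb of exon (log y axis) of each gene, ordered by mean level in control livers; points are libraries of the 3 diets and short lines are group means. Cidea, Plin4 and Cidec lie at or below 2.83 CPM per kb in controls and at or above 5.43 CPM per kb in all libraries of the fat-rich diets.

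The genes whose profiles lay closest to each droplet gene were found from the root mean square difference of log2 CPM, each gene centred on its own mean, over 14 libraries and 11645 candidate genes, the 10 droplet genes themselves left out. Among the droplet genes, Cidea and Cidec were 0.79 apart, nearer than any candidate was to Cidea. Closest to Cidec were Mogat1, a monoacylglycerol acyltransferase (0.57), Vnn1 (0.72) and Acot2, a mitochondrial acyl-CoA thioesterase (0.72). Closest to Cidea were the fatty acid hydroxylase gene Cyp4a10 (1.02), Mogat1 (1.10) and Themis (1.23). Plin2 had Crat, the carnitine acetyltransferase, at 0.19, followed by the peroxisomal thiolase gene Acaa1b (0.26) and S100a10 (0.26). Plin4 had Osbpl3 (0.36), the fatty acid transporter gene Cd36 (0.38) and Acot2 (0.41). Plin3 had the droplet protein gene Hsd17b13 at 0.11, with 378, 539.5 and 444 CPM in control, high-fat and ketogenic livers. Fitm2 had Hsd17b4, a peroxisomal beta-oxidation enzyme (0.10), Mmd (0.10) and Etfdh (0.11). Hilpda had Fas (0.21), and G0s2 had Bhmt, a methionine cycle enzyme (0.54). These are likenesses of profile over the same libraries, described with no test.

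Other droplet genes, from lists chosen with earlier results of these data known, were read beside the members. Among all genes tested, edgeR called 6.95% higher and 5.01% lower after the high-fat diet and 7.47% and 4.60% after the ketogenic diet. In droplet formation at the endoplasmic reticulum, 3 of 13 tested genes were higher and 0 lower after the high-fat diet, and 3 higher and 3 lower after the ketogenic diet, with medians of 0.08 and -0.03 on the log2 scale. Mogat1 rose from 0.148 ± 0.049 to 5.58 ± 2.04 CPM on the high-fat and 4.29 ± 0.66 CPM on the ketogenic diet (edgeR adjusted p = 7.82e-06 and 6.02e-06). Gpat3, a glycerol phosphate acyltransferase, rose from 1.19 ± 0.77 to 15.7 ± 2.93 and 18.8 ± 3.71 CPM (edgeR adjusted p = 7.82e-06 and 6.02e-06). Of 14 genes of droplet lipolysis, 4 were higher and 2 lower after the high-fat diet and 3 and 3 after the ketogenic diet (medians 0.12 and 0.11). Ces1g, a carboxylesterase, rose from 174.6 ± 32.1 to 335 ± 48.4 and 363 ± 69.8 CPM (edgeR adjusted p = 0.00227 and 0.000720), and the lysosomal lipase gene Lipa rose 0.67 ± 0.15 (SE) on the log2 scale after the high-fat diet (edgeR adjusted p = 0.0113). Pnpla3, a droplet hydrolase, fell after the ketogenic diet from 22.9 ± 9.73 to 0.717 ± 1.44 CPM (edgeR adjusted p = 0.00890).

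Of 22 other droplet surface protein genes, 1 was higher and 1 lower after each diet (medians -0.08 and -0.09). Hsd17b11, a droplet dehydrogenase, rose from 165 ± 20.7 to 222 ± 28.2 CPM on the high-fat and 285 ± 27.2 CPM on the ketogenic diet (edgeR adjusted p = 0.0343 and 0.000709). The gene that fell was Ubxn4 after the high-fat diet (edgeR adjusted p = 0.0371) and Acsl4, a long-chain acyl-CoA synthetase, after the ketogenic diet (edgeR adjusted p = 0.0114). Among 19 regulators of droplet genes, 2 were higher and 3 lower after the high-fat diet, and 2 and 4 after the ketogenic diet (medians -0.18 and -0.31). Pparg, the adipogenic nuclear receptor that in mice drives Cidec in fatty liver, rose from 5.65 ± 2.66 to 21.7 ± 5.79 and 20.4 ± 3.63 CPM (edgeR adjusted p = 0.000618 and 0.000527). Insig2, which retains sterol sensors in the endoplasmic reticulum, rose from 64.7 ± 19.5 to 315 ± 118 CPM on the high-fat diet (edgeR adjusted p = 0.000471), and Srebf1, the lipogenic regulator, fell from 1133 ± 289.7 to 265 ± 84.7 CPM on the ketogenic diet (edgeR adjusted p = 0.000520). Of 20 PPAR-alpha target genes 19 were higher and 0 lower after each diet (medians 1.18 and 1.19), among them Vnn1 and Aldh3a2, a fatty aldehyde dehydrogenase. Creb3l3 is in both this list and that of the regulators. Between ketogenic and high-fat livers 0 genes of each of these 5 lists passed edgeR's test and 0 passed DESeq2's. At an unadjusted p under 0.05 in edgeR there were 3 PPAR-alpha target genes, 1 gene of droplet formation, 0 of lipolysis, 2 of the other surface proteins and 2 of the regulators. The most abundant genes of droplet formation, lipolysis, the other surface proteins and the regulators were Dgat2 (edgeR adjusted p = 0.584), Ces3a (adjusted p = 0.574), Mettl7b (adjusted p = 0.984) and Hnf4a (adjusted p = 0.978).

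Markers of other cell types were read in the same fit, beside 12.0% and 12.1% of all genes called in either direction after the high-fat and ketogenic diets. Of 9 tested adipocyte markers 1 was higher after the high-fat diet, Fabp4, and 2 after the ketogenic diet, Cfd and Car3 (edgeR adjusted p = 0.0149), and hepatocytes express Car3 themselves. Their summed level was 2641 to 3838 CPM in controls, 5390 to 6340 CPM in high-fat and 3796 to 9885 CPM in ketogenic libraries, almost all of it from Car3 and the gluconeogenic gene Pck1. Of 5 tested brown adipocyte markers 2 were higher after each diet, Pdk4 and Cpt1b, which oxidative tissues also express. Of 19 macrophage markers 1 was higher after the high-fat diet, Gpnmb (edgeR adjusted p = 0.0163), and 2 higher and 1 lower after the ketogenic diet, with Gpnmb (adjusted p = 0.00438) and Trem2 (adjusted p = 0.0262) higher. For Gpnmb 1 ketogenic library held 3271 of the 4882 counts of its group, and for Trem2 1 held 679 of 1020. Stellate cell and fibroblast markers held 5 higher of 12 after the high-fat and 4 after the ketogenic diet, hepatocyte markers 1 and 4 lower of 11. Of 9 skeletal muscle markers 0 were called after either diet, 0 of them at an unadjusted p under 0.05 and 0 by DESeq2. Of 12 pancreatic acinar markers 0 were called by edgeR after either diet. At an unadjusted p under 0.05 there were 0 after the high-fat and 2 after the ketogenic diet, and DESeq2 called 0 and 2.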

How the data were processed

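The deposited values are raw whole-number counts per Ensembl gene, 1 column per library, made by the authors from poly(A)-selected, stranded liver libraries, per the labels' protocols. Build GRCm39 and the tools featureCounts 1.6, STAR 2.7.9a, cutadapt 1.16 and DESeq2 1.36.0 are listed in the submitters' processing notes, with no role or order; no source used here states the annotation or strand setting. Symbols, from a GRCm38 annotation used for names and exon lengths, matched 91.39% of 56980 IDs. Control replicate 1 was left out. Low genes were removed by filterByExpr at a minimum count of 10 and a minimum total of 15. Libraries were scaled by TMM factors of 0.886 to 1.215 and tested in 1 fit over 3 diets with edgeR 4.0.16 in R 4.3.3 (robust glmQLFit, two-sided glmQLFTest, Benjamini-Hochberg over 14627 genes, threshold 0.05; biological coefficient of variation 0.25); DESeq2 1.42.0 was an alternative. The SE of a log2 fold change is its size divided by the square root of F, and intervals use the test's degrees of freedom. CPM are TMM-scaled, except summed marker levels, which are per total counts. Shares were compared with exact permutation tests (scipy 1.17.1), adjusted over 9. The fit was run on simulated counts that had its own estimated spread and no library standing apart. That run therefore does not bear on libraries that stand apart. The text names all 10 genes, up to 2 genes per list and comparison whose adjusted p was lowest among those called (otherwise the most abundant gene) and up to 3 nearest profiles per gene; 5 lists and the marker lists were used, and some of the genes so chosen are not printed. The members and lists were chosen with earlier results of these data known. Counting intervals cover counting error only. Same-numbered libraries of different diets were not paired: their deviations correlated above 0.1 in 3 of 13 pairs.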

Additional observations from a re-analysis of the deposited data

Results flagged for a closer look

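Of 39 sets of values (10 genes and 3 shares in 3 diets), 3 held a library far from the rest of its diet by Dixon's criterion, which chance alone flags in about 1 in 20 sets. Plin3 in control replicate 5 was at 43.5 CPM, while the other controls were at 32.9 to 34.2 CPM. Hilpda in high-fat replicate 5 was at 5.97 CPM, above 2.77 to 3.64 CPM in the other high-fat libraries. In ketogenic replicate 5, Cidea plus Cidec gave 39.8% of the CIDE counts, above 32.8% to 33.9% in the other ketogenic libraries. The causes were not tested.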

How the results depend on the processing

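Over 22 alternatives the calls on Cidea, Cidec, Plin2, Plin4 and Fitm2 against controls kept their direction and side of the threshold on both fat-rich diets. The number of the 10 genes called ran from 6 to 10 for high-fat and from 5 to 8 for ketogenic against control, the lowest without control replicate 3 or 4, and stayed at 0 between the fat-rich diets, also with the replicate block, which gave 8, 7 and 0 and changed no call on the 10 genes. Same-numbered libraries share only a number: correlations ran from -0.404 to 0.418 and 3 of 14 libraries correlated best with their own number. The block gave 1380, 1297 and 15 calls over all genes. Genes called over all genes fell from 1749 to 1131 without high-fat replicate 4, 1077, 934 and 1132 without control replicates 3, 4 and 5, and rose to 3239 without both libraries that stood apart. For ketogenic against control they fell from 1766 to 1156, 1056 and 1124 without control replicates 3, 4 and 5. Between the fat-rich diets 9 became 15 with library totals, 26 with no filter, 173 with DESeq2, 1 with only those diets in the fit, 1 to 315 with 1 library left out and 636 without both that stood apart; the cause was not tested.

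With 1 library left out, the log2 differences between ketogenic and high-fat livers reached -0.115 for Cideb, -0.277 for Cidec, -0.228 for Plin4, -0.294 for Plin5, -0.257 for Hilpda and 0.37 for G0s2 at the far end of their ranges. Over all 22 alternatives Cidea reached -0.938, Plin2 -0.356, Plin3 -0.483 and Fitm2 0.253. For Plin3 the lowest edgeR adjusted p was 0.0541, close to the threshold.

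Signs turned only between ketogenic and high-fat livers, for differences near 0 that never passed. On the log2 scale Plin4 became 0.04 with library totals (0.0401), 0.0756 with the replicate block, 0.0483 with the library number group, and 0.0244, 0.116 and 0.151 without high-fat replicates 2, 3 and 5, and 0.0463, 0.0844, 0.00605 and 0.0171 without ketogenic replicates 2 to 5. Cidec became 0.0661 with the replicate block and 0.0415, 0.0402 and 0.0346 without high-fat replicates 2, 3 and 4. G0s2 became -0.00953 with the replicate block and -0.14 without ketogenic replicate 3. Plin5 and Hilpda became 0.00621 and 0.0583 without high-fat replicate 5, and Cideb 0.0283 without ketogenic replicate 5 and 0.0317 without both libraries that stood apart. The difference in the Cidea plus Cidec share ran from -6.18 to 1.38 percentage points with 1 library left out, turning sign at 0.658, 1.38 and 1.10 without high-fat replicates 2, 3 and 4, and that in the Plin2 share from -1.72 to 0.0773, turning sign without high-fat replicate 4. Depth was lowest for Cidea in controls, at 2 to 19 counts a library.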

Other observations

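High-fat replicate 1 held the lowest value of its diet for 7 of the 10 genes and the highest for 0, while high-fat replicate 5 held the highest for 6. Among ketogenic libraries, replicates 1 and 5 were the lowest for both Cidea (10.4 and 18.6 CPM) and G0s2 (94.3 and 126 CPM), yet replicate 1 was the highest for Plin2 (641.5 CPM), Plin3 (51.9 CPM) and Plin4 (143 CPM). High-fat replicate 5 was the highest of its diet for Plin2 (799.6 CPM) and Plin4 (137 CPM) and had only 19.4 CPM of Cidea, against 76.8 CPM in replicate 4. These orders were seen in the data and were not tested.

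Control replicate 1, set aside by the submitters as contaminated, lay within the range of the other controls, in CPM per total counts, for 8 of the 10 genes, among them Cidea (0.499 against 0.0931 to 0.932 CPM), Cidec (4.04 against 1.68 to 5.05 CPM) and Plin4 (10.5 against 5.86 to 12.0 CPM). Plin2 (239.6 against 127 to 235 CPM) and Fitm2 (59.3 against 40.9 to 48.7 CPM) lay above that range.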
